A study of Mus musculus with 84 samples.

Results

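The cytochromes P450 of families 1, 2 and 3 are the haem enzymes with which the liver oxidises drugs, toxins and many steroids and fatty acids. The set described here holds the genes whose symbol begins with Cyp1a, Cyp2 or Cyp3a followed by a letter or digit, without the vitamin D, retinoid and other families numbered Cyp20 to Cyp27 and without the 12 pseudogenes named -ps. Of the 60 symbols that fit this rule, 56 had at least 1 read in the liver, and 43 had 10 reads or more in at least 6 of the 42 liver libraries and form the set. The files list 48794 genes, of which 15964 entered the tests, all 43 members among them. The members comprise 2 Cyp1a, 4 Cyp2a, 3 Cyp2b, 13 Cyp2c, 7 Cyp2d, 4 Cyp2j and 5 Cyp3a genes, and Cyp2e1, Cyp2f2, Cyp2r1, Cyp2s1 and Cyp2u1 as the single members of their subfamilies.

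The livers came from male C57BL/6J mice with diet-induced obesity (DIO), fed a high-fat diet and 22 weeks old at the start, which received a subcutaneous dose each day for 30 days. There were 7 groups, namely vehicle, BI 456906 in doses of 3 or 10 and of 20 or 30 nmol/kg, and 2 doses of semaglutide (20 or 100 nmol/kg), each with 6 mice and 1 liver library per mouse. BI 456906 is a dual agonist of the glucagon receptor (GCGR) and the glucagon-like peptide-1 receptor (GLP-1R), whereas semaglutide acts on the GLP-1R alone. All groups, vehicle included, were males that were obese when dosing began, and no lean group was analysed here. The paper reports that body weight and fat mass then fell with rising doses of the dual agonist and with semaglutide. It also reports that food intake dropped early with these compounds and later returned towards baseline. The part of weight, fat and food intake in the changes described below was not tested. The study asked which liver transcripts BI 456906 regulated by dose and semaglutide did not.

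In the liver, P450s of these families sit in the endoplasmic reticulum of hepatocytes and receive electrons from a shared reductase. Their transcription is set by receptors that sense foreign compounds, among them the constitutive androstane receptor (CAR), the pregnane X receptor (PXR) and the aryl hydrocarbon receptor (AhR), and by liver factors that also answer to fasting, inflammation and growth hormone. Many members differ between male and female mice, and several are restricted to a zone of the liver lobule, either around the portal tract or around the central vein.

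The libraries held 21676902 to 53869104 reads, with a median of 43179390. The 6 hepatocyte markers Alb, Apoa1, Ttr, Cps1, Apob and Serpina1a summed to 67940 to 80961 TPM, the read level scaled by gene length and library total, in vehicle and to 85983 to 99604 TPM at 30 nmol/kg BI 456906, with 5 of them higher and Ttr lower. Adipocyte markers summed to at most 0.94 TPM and acinar markers to at most 0.51 TPM in these groups. In bulk liver, fewer hepatocytes of a zone and less RNA per cell cannot be told apart. 1 library of the 30 nmol/kg BI 456906 group, replicate 70, stood apart from the other 5 of its group in 9 of the 28 members followed in detail. Results of these members that rest on it are given with and without it. Outside the 28, which alone were checked, replicate 70 was also the highest of its group for Cyp2a12, Cyp2c38, Cyp2c40 and Cyp3a25, among others. The labels name no cultures or litters, so that p-values measure the spread between mice called separate samples.

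In vehicle liver the members summed to 14585 ± 1031 TPM (mean ± SD, n = 6). Cyp2e1, which oxidises ethanol, acetone and paracetamol, supplied 47.1% of this total. Next in order were Cyp3a11, Cyp2d26 and Cyp2d9, whose vehicle values overlapped. In all, 19 members averaged at least 100 TPM in vehicle, 9 lay between 10 and 100 TPM, 6 between 1 and 10 TPM, and 9 below 1 TPM. Neighbours in the order of vehicle levels overlapped in 36 pairs and were apart in 6.

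The summed level was lower at the upper doses of BI 456906. At 3 nmol/kg it was 14648 ± 751 TPM and at 10 nmol/kg 13411 ± 414 TPM. At 20 nmol/kg it was 11182 ± 803 TPM, and the 30 nmol/kg group stood at 10967 ± 748 TPM. The semaglutide groups summed to 14864 ± 702 (20 nmol/kg) and 15193 ± 1569 TPM (100 nmol/kg). The 6 livers at 30 nmol/kg BI 456906, at 10002 to 11975 TPM, lay below all 6 vehicle livers, at 13042 to 15828 TPM. The Cyp3a genes supplied 10.4% of the total in vehicle and 5.18% at 30 nmol/kg. Sums over a subfamily are descriptions without a test, since its members are not replicates.

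**Figure D1:**
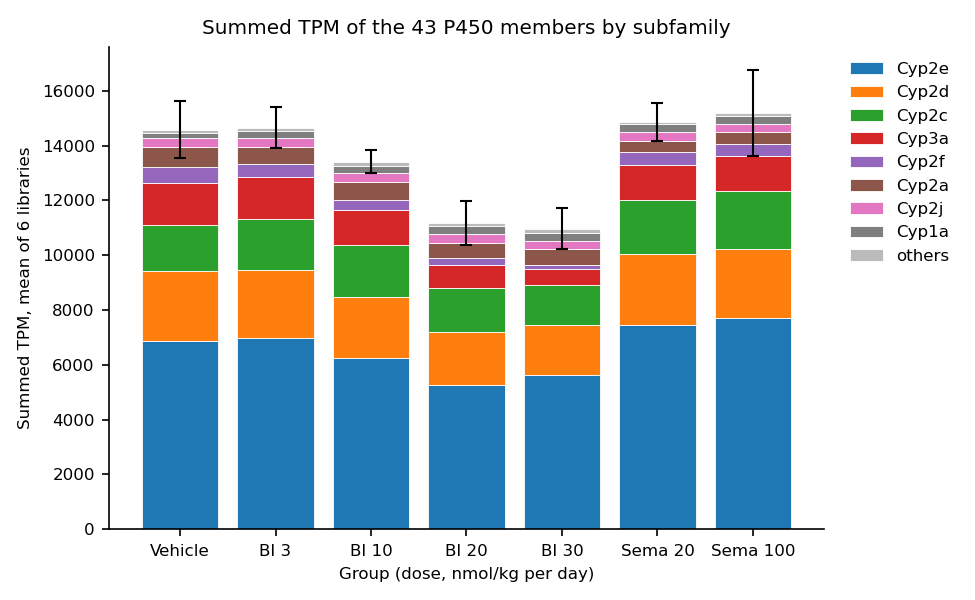
Stacked bars of the mean summed TPM of the members by subfamily in the 7 groups of 6 mice, with the SD of the total as error bars. The total falls from 14585 TPM in vehicle to 10967 TPM at 30 nmol/kg BI 456906 and is 14864 and 15193 TPM with the semaglutide doses.

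Below, the level of a gene in a group is the median TPM of its 6 livers, with the lowest and the highest liver in brackets. Fold changes come from a limma/voom fit on the deposited read values, scaled per library, of all 42 liver libraries. They are given as log2 fold change ± standard error (SE), and count as called at an adjusted p of at most 0.05 over all genes tested. At 30 nmol/kg BI 456906, 24 members were lower than in vehicle and 6 were higher. Over all genes tested the shares were 29.9% lower and 28.9% higher, so that the set's 55.8% lower was above the background. Its 13.95% higher was below the background, but this count was 10 without replicate 71 of the 30 nmol/kg group and 11 with sample quality weights. The share of all genes called under these settings was not counted. The 6 higher members include Cyp2j8, which had too few reads to enter the set without the livers of this group. The median log2 fold change of the members was -0.38, against -0.03 for all genes. With a further minimum of 1 in log2 fold change, 12 members were lower and 4 higher, against 6.9% and 5.99% of all genes. On the log2 scale of the fit, the 6 values of the group lay apart from the 6 of vehicle in 13 members downward and 3 upward, against 16.2% and 17.8% of all genes.

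The number of members called grew with the dose of BI 456906, as did the share of all genes called. At 20 nmol/kg, 22 members were lower and 5 higher (51.2% and 11.6%, background 22.9% and 23%). At 10 nmol/kg, 10 were lower and 3 higher (23.3% and 6.98%, background 18.1% and 19.4%). At 3 nmol/kg 2 were lower and 2 higher (4.65% each, background 4.93% and 8.46%), so that the share lower was near the background. A linear slope over vehicle and the 4 doses fell in 24 members and rose in 7 (55.8% and 16.3%, background 29.6% and 29.3%). With semaglutide, 11 members were lower and 5 higher at 20 nmol/kg (23.5% and 23%), and 12 were lower and 8 higher at 100 nmol/kg (24.1% and 24%). The shares lower with semaglutide, 25.6% and 27.9%, were near the background. The shares higher, 11.6% and 18.6%, were below it, but with sample quality weights 12 and 14 members were higher. The background under these weights was not counted, so that these counts cannot be read against it. The median member changed by -0.03 and -0.08 at these doses. All of these contrasts share the 6 vehicle livers.

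Of the members, 33 had 10 reads or more in all 42 libraries. Among them, 21 were lower and 5 higher at 30 nmol/kg BI 456906, against 29.9% and 28.9% of all genes tested. The other 10 had few reads and reached 10 reads in 9 (Cyp2j8), 11 (Cyp3a57), 21 (Cyp2d12), 25 (Cyp2b13), 26 (Cyp2c69), 28 (Cyp2s1), 31 (Cyp2c40), 33 (Cyp2c55), 34 (Cyp2d11) or 41 (Cyp1a1) libraries. Because some of these entered the set through the groups in which they were high, they are given below as single values.

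**Figure D2:**
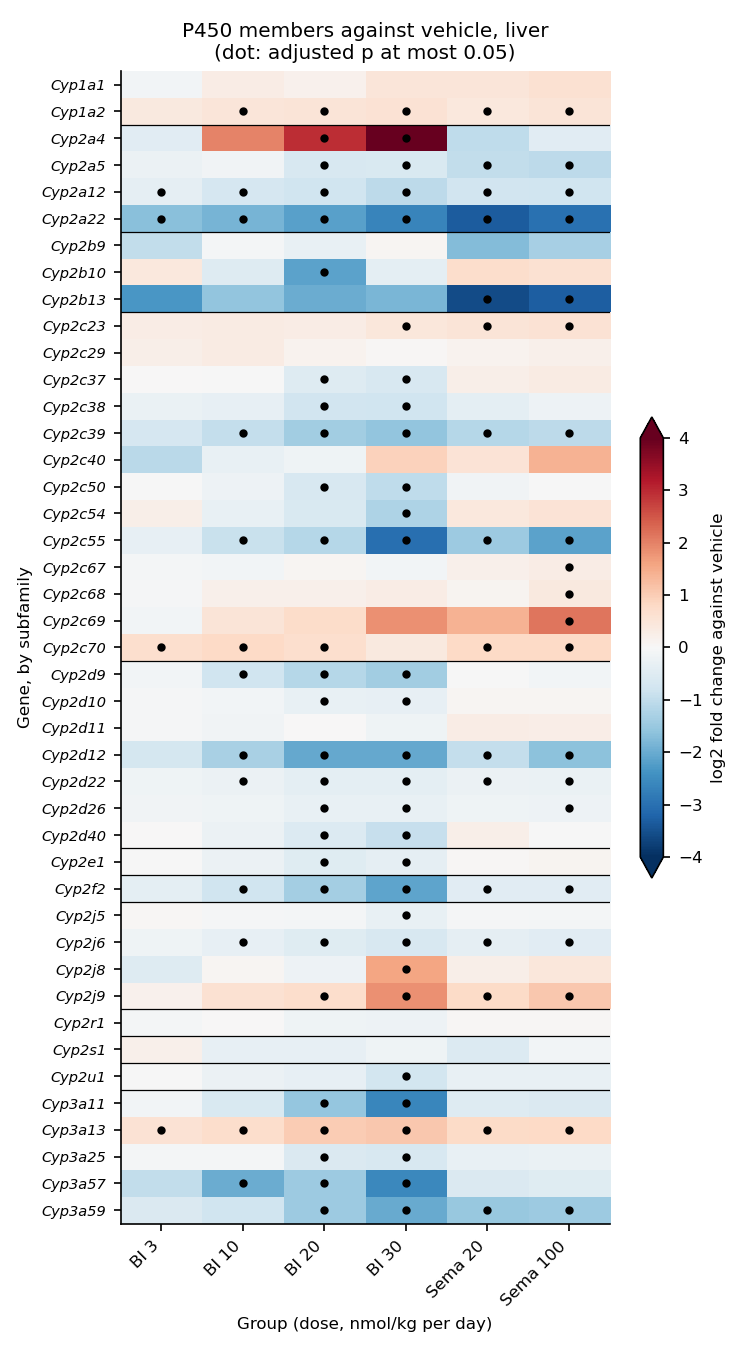
Heat map of the log2 fold change against vehicle of the 43 members (rows, by subfamily) in the 4 BI 456906 and 2 semaglutide groups (columns), with colours clipped at 4 and a dot where the adjusted p is at most 0.05. Most Cyp2d, Cyp3a and Cyp2f rows deepen in blue from 3 to 30 nmol/kg BI 456906, while Cyp2a4, Cyp2j9 and Cyp3a13 are red at 20 and 30 nmol/kg BI 456906. Cyp2a4 is on the blue side at 3 nmol/kg BI 456906 and at both semaglutide doses.

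The Cyp3a subfamily held both directions. Cyp3a11 (chr5:145854426-145879964, minus strand, GRCm38), the main mouse counterpart of human CYP3A4 and a PXR target, lay at 1166 TPM (627 to 1518) in vehicle. It was at 917 TPM (393 to 1117) with 10 nmol/kg BI 456906, 526 TPM (134 to 593) with 20 nmol/kg and 165 TPM (129 to 336) with 30 nmol/kg. At 20 and 30 nmol/kg all 6 livers lay below the lowest vehicle liver. The fall at 30 nmol/kg was 6.16-fold (log2 fold change -2.62 ± 0.35, adjusted p = 5.33e-08). With semaglutide Cyp3a11 ranged over 329.7 to 1275 TPM at 20 nmol/kg and 235 to 1250.3 TPM at 100 nmol/kg, overlapping vehicle, and neither dose passed the test (log2 fold change -0.57 ± 0.36, adjusted p = 0.199 at 100 nmol/kg).

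Cyp3a13 (chr5:137892932-137921619, minus strand), a Cyp3a enzyme encoded several megabases from the rest of the cluster, moved the other way. It lay at 73.4 TPM (68.7 to 88.1) in vehicle and rose at every dose, by 0.58, 0.70, 1.01 and 1.06 on the log2 scale at 3, 10, 20 and 30 nmol/kg BI 456906. At 30 nmol/kg it reached 163.4 TPM (141 to 188), apart from vehicle (adjusted p = 7.86e-10). Semaglutide raised it too, to 135 TPM (119 to 152) at 100 nmol/kg (log2 fold change 0.79 ± 0.11, adjusted p = 7.92e-07).

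Cyp3a25 and Cyp3a59 fell with Cyp3a11. Cyp3a25 went from 309 TPM (259 to 339) to 189.6 TPM (177 to 279) at 30 nmol/kg, with overlapping groups (log2 fold change -0.64 ± 0.15, adjusted p = 0.000539). The overlap came from replicate 70 alone, since the other 5 treated livers lay at 177 to 208 TPM. Cyp3a59 went from 17.1 TPM (11.1 to 22.4) to 3.92 TPM (2 to 10.7) (log2 fold change -2.02 ± 0.40, adjusted p = 4.65e-05), and its highest liver at 30 nmol/kg was replicate 70, without which the change was -2.27 (adjusted p = 2.98e-05). Cyp3a59 was also lower with 100 nmol/kg semaglutide (log2 fold change -1.46 ± 0.37, adjusted p = 0.00122). Cyp3a57 rested on 7 to 19 reads per liver in vehicle and 0 to 7 at 30 nmol/kg, so that its fitted change of -2.58 has little depth behind it.

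The bases before the start sites of Cyp3a11 (chr5:145879965-145880104, minus strand) and Cyp3a13 (chr5:137921620-137921869, minus strand) are shown because these genes of 1 subfamily moved in opposite directions. They come from the RefSeq promoter windows of GRCm38.p6, which matched 38 of the 43 members, and every printed stretch ends before both the RefSeq and the GENCODE start. Capitals mark matches on either strand to letters searched in all windows, here the nuclear receptor core AGGTCA, its form AGTTCA and the TATA box TATAAA.
Cyp3a11: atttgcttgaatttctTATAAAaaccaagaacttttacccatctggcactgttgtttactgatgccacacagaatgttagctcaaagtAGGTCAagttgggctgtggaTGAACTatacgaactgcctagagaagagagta
Cyp3a13: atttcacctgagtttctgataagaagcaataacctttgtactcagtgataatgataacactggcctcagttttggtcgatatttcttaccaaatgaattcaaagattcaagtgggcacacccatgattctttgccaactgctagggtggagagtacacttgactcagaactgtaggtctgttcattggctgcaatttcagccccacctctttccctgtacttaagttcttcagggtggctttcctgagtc
The 250 bases before the RefSeq starts of these genes were 53.5% identical when aligned, and their transcripts 73.6%. The Cyp3a11 stretch held 1 AGGTCA 162 bases before the RefSeq start, 1 match to AGTTCA, on the opposite strand, at 142 bases and 1 TATAAA at 234 bases, whereas none of the searched letters were in the Cyp3a13 stretch. AGGTCA was in the windows of 10 members (26.3%) and in 14.03% of all 32817 windows. AGTTCA was in 5 member windows (13.2%, against 11.9%) and TATAAA in 19 (50%, against 12.4%). A match is a description of letters and not a bound site.

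Cyp2f2 (chr7:27119909-27133660, plus strand), which oxidises naphthalene and is a periportal gene of the lobule, fell stepwise with BI 456906. Its levels were 602 TPM (532 to 631) in vehicle, 450.3 TPM (430.3 to 554) at 3 nmol/kg, 374 TPM (290.0 to 454) at 10 nmol/kg, 260.4 TPM (179 to 301) at 20 nmol/kg and 168 TPM (69.5 to 176) at 30 nmol/kg. From 10 nmol/kg upward no treated liver reached the lowest vehicle liver. The log2 fold change was -0.80 at 10, -1.35 at 20 and -2.10 ± 0.16 (adjusted p = 8.39e-13) at 30 nmol/kg, a 4.28-fold fall, and the slope was -0.66 per 10 nmol/kg. Replicate 70 was the lowest of its group at 69.5 TPM, and without it the change was -1.88 (adjusted p = 1.11e-13). Semaglutide lowered Cyp2f2 by less, to 460.4 TPM (393 to 529) at 20 nmol/kg and 463 TPM (369 to 500.4) at 100 nmol/kg (log2 fold change -0.46 ± 0.17, adjusted p = 0.0203). The call at 100 nmol/kg was lost without semaglutide replicate 83 (-0.40, adjusted p = 0.0615). Its promoter stretch (chr7:27119705-27119908, plus strand) is shown for the single AGGTCA, in capitals, 221 bases before the RefSeq start.
Cyp2f2: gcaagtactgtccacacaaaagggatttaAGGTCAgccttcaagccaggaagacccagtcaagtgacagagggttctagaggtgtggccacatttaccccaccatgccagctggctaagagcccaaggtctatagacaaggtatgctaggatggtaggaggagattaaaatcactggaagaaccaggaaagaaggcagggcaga

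Cyp2e1 (chr7:140763739-140774987, plus strand), a pericentral gene, fell modestly in fold but from the highest level of any member, its mean going from 6871 TPM in vehicle to 5630 TPM at 30 nmol/kg. It lay at 7087 TPM (5616 to 7898) in vehicle, 5435 TPM (3841 to 6126) at 20 nmol/kg BI 456906 and 5692 TPM (4631 to 6402) at 30 nmol/kg, with overlapping ranges. The log2 fold changes were -0.50 ± 0.11 (adjusted p = 0.000436) at 20 nmol/kg and -0.36 ± 0.11 (adjusted p = 0.00639) at 30 nmol/kg. With semaglutide its medians were 7458 and 7695 TPM at 20 and 100 nmol/kg, and neither dose passed the test.

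**Figure D3:**
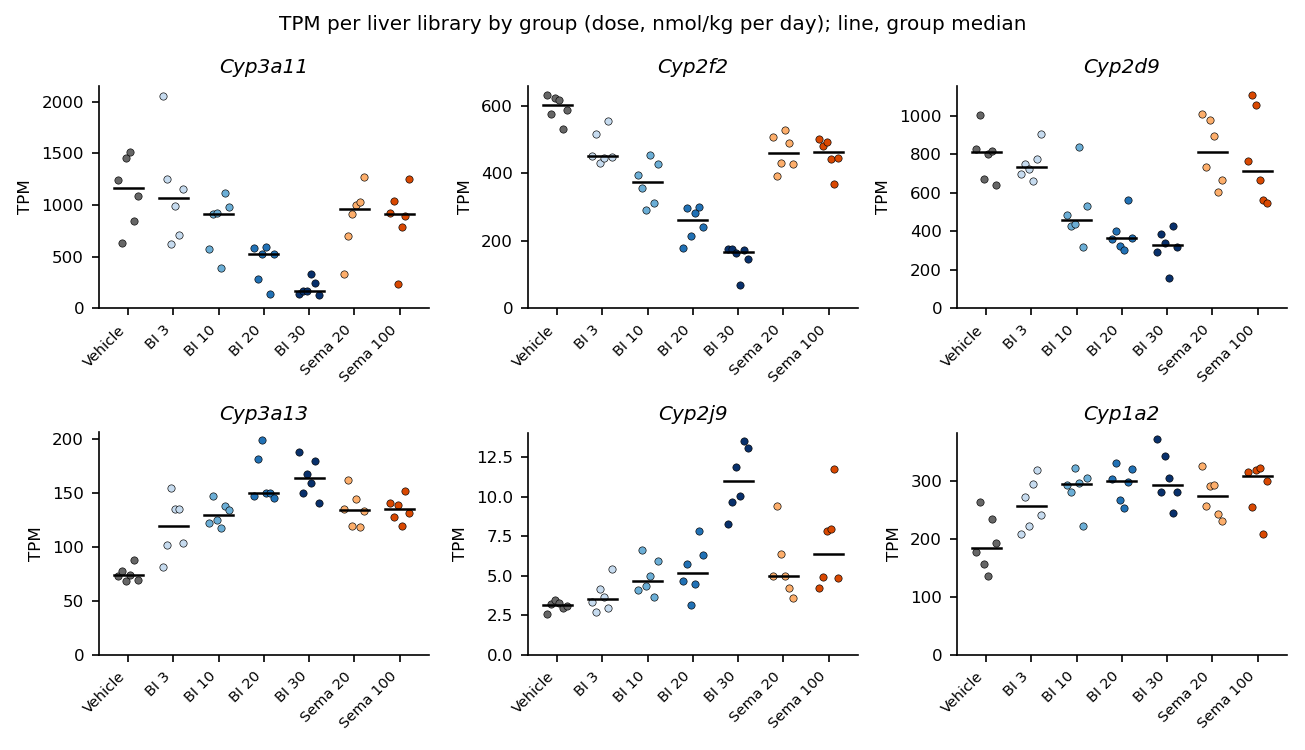
TPM of Cyp3a11, Cyp2f2, Cyp2d9, Cyp3a13, Cyp2j9 and Cyp1a2 in each of the 42 livers (points) by group, on linear axes. Cyp3a11, Cyp2f2 and Cyp2d9 step down from vehicle to 30 nmol/kg BI 456906, whereas the 6 values of Cyp3a13 and of Cyp2j9 at 30 nmol/kg lie above all vehicle values.

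Of the 7 Cyp2d genes, 6 were lower at 30 nmol/kg BI 456906 and none was higher, against 29.9% lower and 28.9% higher of all genes tested. Their summed level went from 2568 ± 166 TPM in vehicle to 1808 ± 68.6 TPM. Cyp2d9, a testosterone hydroxylase known to be higher in male mice, fell the most among the abundant ones, from 811 TPM (639 to 1006) to 327 TPM (159 to 427), with no overlap (log2 fold change -1.40 ± 0.21, adjusted p = 5.79e-07). It had already fallen at 10 nmol/kg, to 460.1 TPM (318 to 837) (log2 fold change -0.79 ± 0.22, adjusted p = 0.00354). With 100 nmol/kg semaglutide it ranged over 545 to 1108 TPM, around the vehicle range, with a log2 fold change of -0.10 ± 0.22 (adjusted p = 0.725).

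Cyp2d26, the most abundant Cyp2d gene, went from 908 TPM (851 to 962) to 776 TPM (635 to 1011.4) with overlap, a smaller change (log2 fold change -0.29 ± 0.09, adjusted p = 0.00502). Cyp2d10 and Cyp2d22, the latter the closest mouse relative of human CYP2D6, changed by -0.32 and -0.38 without overlap of the groups, at 515 to 593 against 612 to 710.0 TPM and 97.5 to 113 against 123.1 to 148 TPM. Cyp2d40 fell from 67.9 TPM (51.6 to 94.3) to 40.2 TPM (26.5 to 53.6) (log2 fold change -0.93 ± 0.17, adjusted p = 1.93e-05). Cyp2d12 was scarce, at 0.37 TPM (0.22 to 0.59) in vehicle and 0.035 TPM (0 to 0.13) at 30 nmol/kg (log2 fold change -2.06 ± 0.32, adjusted p = 1.03e-06), and was lower with 100 nmol/kg semaglutide as well (log2 fold change -1.65 ± 0.30, adjusted p = 2.78e-05). Cyp2d11, at 0.16 to 0.23 TPM in vehicle, did not pass the test (log2 fold change -0.16 ± 0.32, adjusted p = 0.682). Reads of Cyp2d9, Cyp2d10 and Cyp2d11 can be shared, since 9.86%, 14.8% and 12.2% of the 100-base stretches of their transcripts also occurred in another P450 transcript.

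The 13 Cyp2c genes, many of which oxidise arachidonic acid and its relatives, were split. At 30 nmol/kg BI 456906, 6 were lower, 1 was higher (background 29.9% and 28.9%) and the other 6 did not pass the test. Cyp2c50, the most abundant Cyp2c gene with Cyp2c29, fell from 364 TPM (314 to 532) to 216 TPM (139.5 to 258) without overlap (log2 fold change -1.01 ± 0.14, adjusted p = 9.88e-08). Its neighbour Cyp2c54 went from 99 TPM (65.9 to 216) to 55.6 TPM (20.6 to 107) with overlap (log2 fold change -1.25 ± 0.32, adjusted p = 0.00109). The transcripts of this pair were 92.8% identical, and 9.40% and 7.59% of their 100-base stretches were shared with another P450. Cyp2c37 and Cyp2c38 fell by less (log2 fold changes -0.63 ± 0.21, adjusted p = 0.00949 and -0.78 ± 0.23, adjusted p = 0.00312).

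Cyp2c39, a retinoic acid hydroxylase, went from 5.16 TPM (3.79 to 7.08) to 1.69 TPM (1.02 to 3.98) (log2 fold change -1.58 ± 0.29, adjusted p = 1.53e-05), and the single treated value inside the vehicle range was that of replicate 70. Cyp2c55 was low in vehicle, at 0.725 TPM (0.54 to 1.06), and at 30 nmol/kg lay at 0.085 TPM (0.04 to 0.19) (log2 fold change -3.01 ± 0.44, adjusted p = 2.63e-07). Both were also lower with 100 nmol/kg semaglutide, Cyp2c39 by -1.05 and Cyp2c55 by -2.15 on the log2 scale. These were the 2 of the 13 Cyp2c genes called lower in that group (background 24.1%).

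The other Cyp2c genes did not pass the test or rose. Cyp2c29, which responds to CAR activators, lay at 333 TPM (286 to 540.1) in vehicle and 395 TPM (288 to 549) at 30 nmol/kg BI 456906, with overlap (log2 fold change 0.05 ± 0.16, adjusted p = 0.785, 95% interval -0.26 to 0.37). With sample quality weights it was called higher there (log2 fold change 0.30, adjusted p = 0.0416) and with 100 nmol/kg semaglutide (0.52, adjusted p = 0.00168). Cyp2c70, the enzyme that makes muricholic acids in mice, was at 129 TPM (84 to 203) in vehicle and was higher at 3, 10 and 20 nmol/kg BI 456906 by 0.66, 0.79 and 0.67 on the log2 scale, but at 30 nmol/kg it lay at 184 TPM (119 to 289) and did not pass the test (log2 fold change 0.38 ± 0.20, adjusted p = 0.0978). It did pass with sample quality weights (0.50, adjusted p = 0.00896), and without vehicle replicate 44 (0.51, adjusted p = 0.0299) or treated replicate 71 (0.53, adjusted p = 0.0237) or 72 (0.48, adjusted p = 0.0474). Both semaglutide doses raised it, the higher to 229 TPM (172 to 368) (log2 fold change 0.79 ± 0.20, adjusted p = 0.00131). Cyp2c23, an arachidonic acid epoxygenase, was the Cyp2c gene called higher at 30 nmol/kg, at 135 TPM (111 to 146) against 83.8 TPM (62.4 to 148) with overlap (log2 fold change 0.44 ± 0.18, adjusted p = 0.0309). This call was lost without replicate 70, at 0.42 (adjusted p = 0.0525), without vehicle replicate 43, 45, 46 or 48 or treated replicate 69 or 72, without a filter, and with edgeR and DESeq2 (adjusted p from 0.0523 to 0.118). Cyp2c23, Cyp2c67, Cyp2c68, Cyp2c69 and Cyp2c70 were the 5 of the 13 Cyp2c genes called higher with 100 nmol/kg semaglutide (background 24%). Their log2 fold changes were 0.57, 0.30, 0.39, 2.15 and 0.79. The Cyp2c69 call was lost on log2(TPM + 1) (adjusted p = 0.0869) and without vehicle replicate 43 (0.0643) or 46 (0.0568) or semaglutide replicate 83 (0.0583).

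Cyp2c40 and Cyp2c69 shared 44.1% and 36.3% of their 100-base stretches with another P450, mostly with each other, and Cyp2c67 and Cyp2c68 shared 23.7% and 19.8%, so that the values of these 4 genes are uncertain. Cyp2c69 was at 0.155 TPM (0.06 to 0.5) in vehicle and 0.655 TPM (0.04 to 9.44) at 30 nmol/kg, where replicate 70 gave the highest value (log2 fold change 1.82 ± 0.81, adjusted p = 0.0519, and 1.08 (adjusted p = 0.185) without replicate 70). It passed at 30 nmol/kg without vehicle replicate 47 or treated replicate 69 or 71 (adjusted p from 0.00422 to 0.0475), and under other fits. Cyp2c40 did not pass the test (log2 fold change 0.94 ± 0.69, adjusted p = 0.244).

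Among the 4 Cyp2a genes, Cyp2a4 rose and the other 3 fell at 30 nmol/kg BI 456906 (background 28.9% higher and 29.9% lower). Cyp2a4 and Cyp2a5 stand near each other on chromosome 7 and hydroxylate testosterone and coumarin, respectively. Cyp2a4 is higher in female mice. Their promoter stretches (chr7:26306942-26307168 and chr7:26835089-26835304, plus strand) are shown because the 250 bases before their RefSeq starts were 97.6% identical, at 245 of 251 aligned positions. Capitals mark the C/EBP letters TTGCNNAA, 70 and 71 bases before the RefSeq starts.
Cyp2a4: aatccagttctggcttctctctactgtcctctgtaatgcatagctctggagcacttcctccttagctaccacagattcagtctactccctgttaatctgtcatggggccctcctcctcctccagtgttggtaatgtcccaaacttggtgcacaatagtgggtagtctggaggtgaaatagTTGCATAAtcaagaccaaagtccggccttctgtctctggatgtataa
Cyp2a5: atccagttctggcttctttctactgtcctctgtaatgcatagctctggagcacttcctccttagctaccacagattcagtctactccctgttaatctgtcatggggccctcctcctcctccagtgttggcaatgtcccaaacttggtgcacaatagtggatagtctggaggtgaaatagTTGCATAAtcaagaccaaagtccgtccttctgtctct
TTGCNNAA was in the windows of 11 members (28.9%) and in 9.57% of all windows. The letters TTCNNNGAA, which STAT5 recognises, were in none of the 38 member windows and in 7.01% of all. The transcripts of the pair were 98.2% identical, and 11.2% of the 100-base stretches of Cyp2a4 and 14.4% of those of Cyp2a5 occurred in another P450, so that some reads can be split between them.

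Cyp2a4 spread widely within groups. Its levels were 4.21 TPM (2.05 to 14.5) in vehicle, 3.73 TPM (0.67 to 10.8) at 3 nmol/kg BI 456906, 23.1 TPM (1.75 to 105) at 10 nmol/kg, 51.3 TPM (3.35 to 155) at 20 nmol/kg and 103 TPM (44.2 to 346) at 30 nmol/kg. At 10 and 20 nmol/kg some livers stayed within the vehicle range while others were far above it, and at 30 nmol/kg all 6 lay above every vehicle liver. The log2 fold change was 2.96 ± 0.94 (adjusted p = 0.00948) at 20 nmol/kg and 4.39 ± 0.95 (adjusted p = 0.000145) at 30 nmol/kg, and 4.07 (adjusted p = 0.000435) at 30 nmol/kg without replicate 70. With 100 nmol/kg semaglutide it ranged over 0.19 to 20.2 TPM, on both sides of the vehicle range.

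Cyp2a5 was at 366 TPM (275 to 538) in vehicle and 254 TPM (182 to 485) at 30 nmol/kg BI 456906, with overlap (log2 fold change -0.59 ± 0.23, adjusted p = 0.0244). This small fall was lost on both TPM scales, with sample quality weights, and when vehicle replicate 44 or 48 or treated replicate 68 or 71 was left out, with adjusted p from 0.0527 to 0.0944. It was -0.76 (adjusted p = 0.00387) without replicate 70. The fall with 100 nmol/kg semaglutide was larger, to 180.3 TPM (126 to 321) (log2 fold change -1.05 ± 0.23, adjusted p = 0.000232). Cyp2a12, another steroid hydroxylase, fell at every dose of BI 456906, from 338 TPM (324 to 368) to 166 TPM (152 to 235) at 30 nmol/kg (log2 fold change -1.03 ± 0.11, adjusted p = 6.6e-10), and by -0.78 with 100 nmol/kg semaglutide, in both cases without overlap with vehicle. Cyp2a22 went from 17.4 TPM (7.41 to 27.4) to 1.66 TPM (0.73 to 26.4) (log2 fold change -2.64 ± 0.67, adjusted p = 0.000863), with replicate 70 alone at 26.4 TPM (log2 fold change -3.30 (adjusted p = 0.000285) without it), and was lower with 100 nmol/kg semaglutide too (log2 fold change -2.99 ± 0.71, adjusted p = 0.000714). With edgeR the Cyp2a22 call at 30 nmol/kg was not made (adjusted p = 0.0548).

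**Figure D4:**
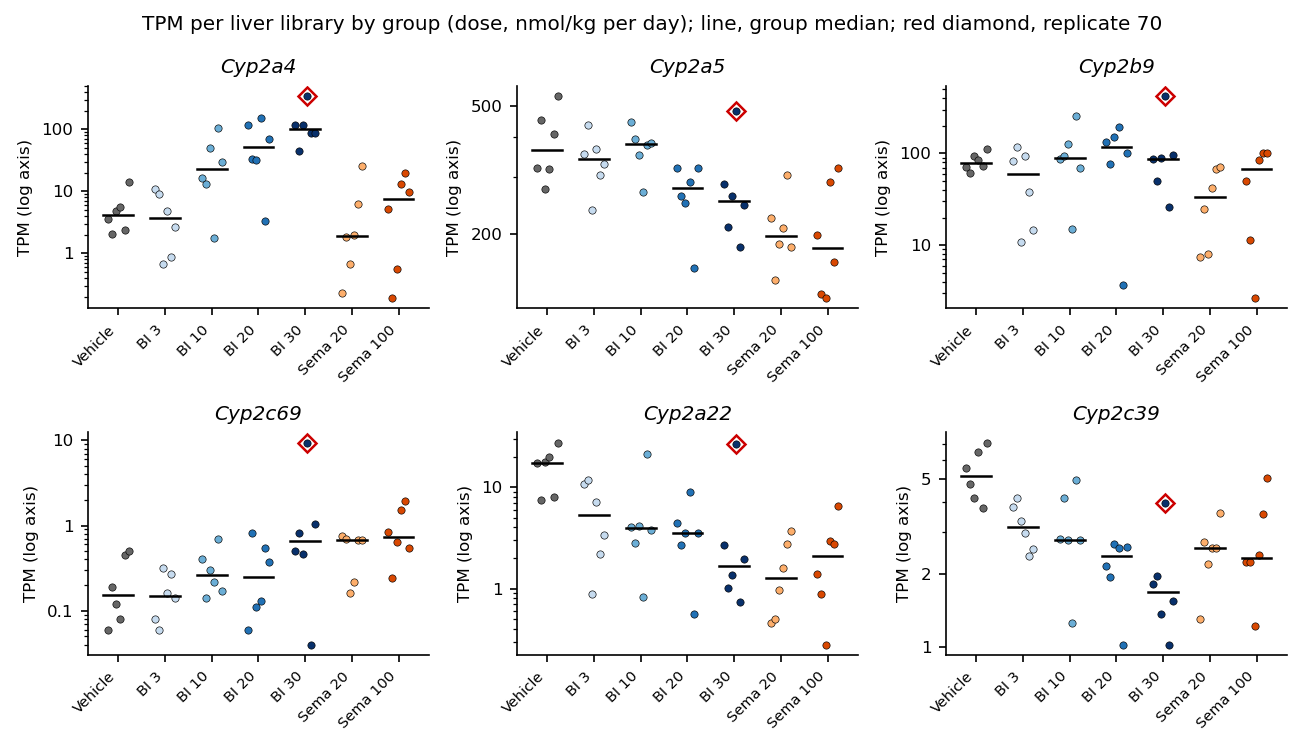
TPM (log axis) of Cyp2a4, Cyp2a5, Cyp2b9, Cyp2c69, Cyp2a22 and Cyp2c39 in each liver of the 7 groups, with replicate 70 of the 30 nmol/kg BI 456906 group as a red diamond. In all 6 panels the diamond is the highest of its group, for Cyp2b9 at 422 TPM against 26.1 to 96.7 TPM in the other 5 livers.

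No Cyp2b gene passed the test at 30 nmol/kg BI 456906. Cyp2b10, the classic CAR target of mouse liver, lay at 15.8 TPM (9.57 to 17.5) in vehicle, 2.83 TPM (1.36 to 11.5) at 20 nmol/kg and 11.2 TPM (5.93 to 21.4) at 30 nmol/kg. It was called lower at 20 nmol/kg (log2 fold change -2.13 ± 0.79, adjusted p = 0.0259), where 1 liver lay inside the vehicle range, and not at 30 nmol/kg (log2 fold change -0.38 ± 0.61, adjusted p = 0.602, 95% interval -1.61 to 0.84). With semaglutide it spread upward, over 11.7 to 106 TPM at 20 nmol/kg and 7.8 to 49.2 TPM at 100 nmol/kg, without passing the test. Cyp2b9 and Cyp2b13, both higher in female mice, were 89.2% identical in transcript. Cyp2b9 was at 78.9 TPM (61.9 to 112) in vehicle and 88 TPM (26.1 to 422) at 30 nmol/kg (log2 fold change 0.06 ± 0.87, adjusted p = 0.954, and -0.38 (adjusted p = 0.727) without replicate 70). Cyp2b13 was at 1.57 TPM (0.19 to 4.12) and 0.19 TPM (0.06 to 22.1), and the 5 livers other than replicate 70 were at 0.06 to 0.22 TPM. Its change was -1.84 ± 1.03 (adjusted p = 0.122) with replicate 70 and -3.04 (adjusted p = 0.0293) without it, and it passed as well without vehicle replicate 47 (-2.34, adjusted p = 0.0398) and with sample quality weights (-2.86, adjusted p = 0.00647). It was called lower with 100 nmol/kg semaglutide (log2 fold change -3.29 ± 1.32, adjusted p = 0.0382), a call lost under the edgeR, DESeq2 and TPM fits, without a filter, and without vehicle replicate 43, 45 or 46 or semaglutide replicate 79, 80, 81 or 83 (adjusted p from 0.0523 to 0.139).

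Cyp1a2, the AhR-inducible oxidase of caffeine and aromatic amines, rose. It lay at 184 TPM (136 to 264) in vehicle and 292 TPM (244 to 371) at 30 nmol/kg BI 456906, with overlap (log2 fold change 0.59 ± 0.14, adjusted p = 0.000575). The rise was already 0.47 at 10 nmol/kg (adjusted p = 0.00852), and with 100 nmol/kg semaglutide it was 0.50 ± 0.14 (adjusted p = 0.00399). Cyp1a1, the other AhR target, was barely present, at 0.15 to 0.27 TPM in vehicle and 0.22 to 0.52 TPM at 30 nmol/kg, and did not pass the test. The AhR core GCGTG was in the windows of 4 members (10.5%), that of Cyp1a1 among them and that of Cyp1a2 not, and in 28.1% of all windows.

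The 4 Cyp2j genes, epoxygenases of arachidonic and related fatty acids, stand side by side on chromosome 4 and were split as well. Cyp2j9 (chr4:96568429-96591578, minus strand) rose from 3.15 TPM (2.59 to 3.47) in vehicle to 11 TPM (8.25 to 13.5) at 30 nmol/kg BI 456906, with no overlap, a 3.55-fold rise (log2 fold change 1.83 ± 0.22, adjusted p = 9.13e-09). At 20 nmol/kg it was at 5.18 TPM (3.13 to 7.81) (log2 fold change 0.69 ± 0.24, adjusted p = 0.019) and with 100 nmol/kg semaglutide at 6.36 TPM (4.21 to 11.8) (log2 fold change 1.06 ± 0.24, adjusted p = 0.00031). Cyp2j8 had 2 to 7 reads per liver in vehicle and 6 to 30 at 30 nmol/kg. Of the 9 libraries in which it reached 10 reads, 5 were of that group and 0 of vehicle, so that it entered the set through the group in which it was high and its fitted rise is not read as a result. Cyp2j5, the abundant member, went from 273 TPM (266 to 320.0) to 258 TPM (195 to 272) with overlap (log2 fold change -0.30 ± 0.09, adjusted p = 0.00514). Cyp2j6 fell from 25.5 TPM (23.4 to 28.4) to 16.7 TPM (13.9 to 20.46) without overlap (log2 fold change -0.65 ± 0.11, adjusted p = 1.95e-06). The Cyp2j9 stretch (chr4:96591579-96591735, minus strand) is shown because it holds TGACG, the core letters of the cyclic AMP response element, which overlap the AhR core GCGTG. Capitals mark both, at 168 and 171 bases before the RefSeq start.
Cyp2j9: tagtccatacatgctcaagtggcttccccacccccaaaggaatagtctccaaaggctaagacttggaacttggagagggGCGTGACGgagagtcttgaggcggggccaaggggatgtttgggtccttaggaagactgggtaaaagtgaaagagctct
TGACG was in the windows of 2 members, Cyp2j9 and Cyp2j5 (5.26%), and in 17.7% of all windows. The Cyp2j5 transcript was lower and the Cyp2j9 transcript higher at 30 nmol/kg.

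Of the remaining members, Cyp2u1, a fatty acid hydroxylase, fell from 7.03 TPM (5.3 to 12.7) to 5.41 TPM (4.23 to 6.69) with overlap (log2 fold change -0.73 ± 0.20, adjusted p = 0.0015). Cyp2r1, a vitamin D hydroxylase, was at 5.86 TPM (5.19 to 6.45) and 5.46 TPM (4.19 to 6.92) and did not pass the test (log2 fold change -0.20 ± 0.11, adjusted p = 0.108, 95% interval -0.43 to 0.02), but was called lower when scaled by library size alone (-0.27, adjusted p = 0.0322). Cyp2s1, a scarce AhR-inducible P450, was at 0.235 TPM (0.1 to 0.33) and 0.14 TPM (0.09 to 0.56) (log2 fold change -0.18 ± 0.41, adjusted p = 0.731).

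Both compounds were compared directly in the same fit. At the equal dose of 20 nmol/kg, 7 members were lower with BI 456906 than with semaglutide and 0 were higher by limma/voom (background 1.51% and 0.908%), while edgeR and DESeq2 each called 1 higher. At an unadjusted p of 0.05, 14 members differed. Those lower were Cyp2f2 (-0.89 ± 0.16, adjusted p = 0.000791), Cyp2d9 (-1.12 ± 0.21, adjusted p = 0.00148), Cyp2d10 (-0.35 ± 0.06, adjusted p = 0.000607), Cyp2e1 (-0.53 ± 0.11, adjusted p = 0.00498), Cyp2d40 (-0.80 ± 0.17, adjusted p = 0.00563), Cyp2c37 (-0.77 ± 0.21, adjusted p = 0.0375) and Cyp2b10 (-2.84 ± 0.78, adjusted p = 0.0375). Cyp2d10 lay at 554 to 630.1 TPM with BI 456906 and 643 to 807 TPM with semaglutide, without overlap, and Cyp2f2 at 179 to 301 and 393 to 529 TPM, also apart. Cyp2b10 lay at 1.36 to 11.5 and 11.7 to 106 TPM, apart by a narrow gap, and its highest value with semaglutide came from 1 liver far above the other 5.

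Cyp3a11 and Cyp2a4 missed the threshold at the equal dose. The difference was -1.05 ± 0.35 (adjusted p = 0.109) for Cyp3a11 (95% interval -1.77 to -0.34) and 3.97 ± 1.14 (adjusted p = 0.0516) for Cyp2a4 (95% interval 1.65 to 6.28), so that sizeable differences lie within both intervals. For Cyp2a12, Cyp1a2 and Cyp2j9 the intervals were narrow and spanned 0, at -0.23 to 0.21, -0.19 to 0.40 and -0.51 to 0.37.

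The highest doses, 30 nmol/kg BI 456906 and 100 nmol/kg semaglutide, are not matched and are set side by side. In that contrast 11 members were lower and 2 higher with BI 456906 (background 5.59% and 4.15%), and the median member differed by -0.38 against 0.01 for all genes. Lower were Cyp3a11 (-2.06 ± 0.35, adjusted p = 0.000107), Cyp3a57, Cyp2f2 (-1.63 ± 0.16, adjusted p = 6.98e-09), Cyp2e1 (-0.45 ± 0.11, adjusted p = 0.00774), Cyp2d9, Cyp2d10 and Cyp2d40 (differences -1.30, -0.40 and -0.91), and Cyp2c37, Cyp2c50, Cyp2c54 and Cyp2c67 (differences -0.96, -1.01, -1.79 and -0.40). Higher were Cyp2a4 (4.84 ± 1.03, adjusted p = 0.00175) and Cyp2j9 (0.77 ± 0.19, adjusted p = 0.00697). Cyp3a13, higher than vehicle with both compounds, differed between them by 0.27 ± 0.12 (adjusted p = 0.135) (95% interval 0.04 to 0.51). For Cyp1a2 the difference was 0.09 ± 0.14 (adjusted p = 0.76) (95% interval -0.20 to 0.38).

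**Figure D5:**
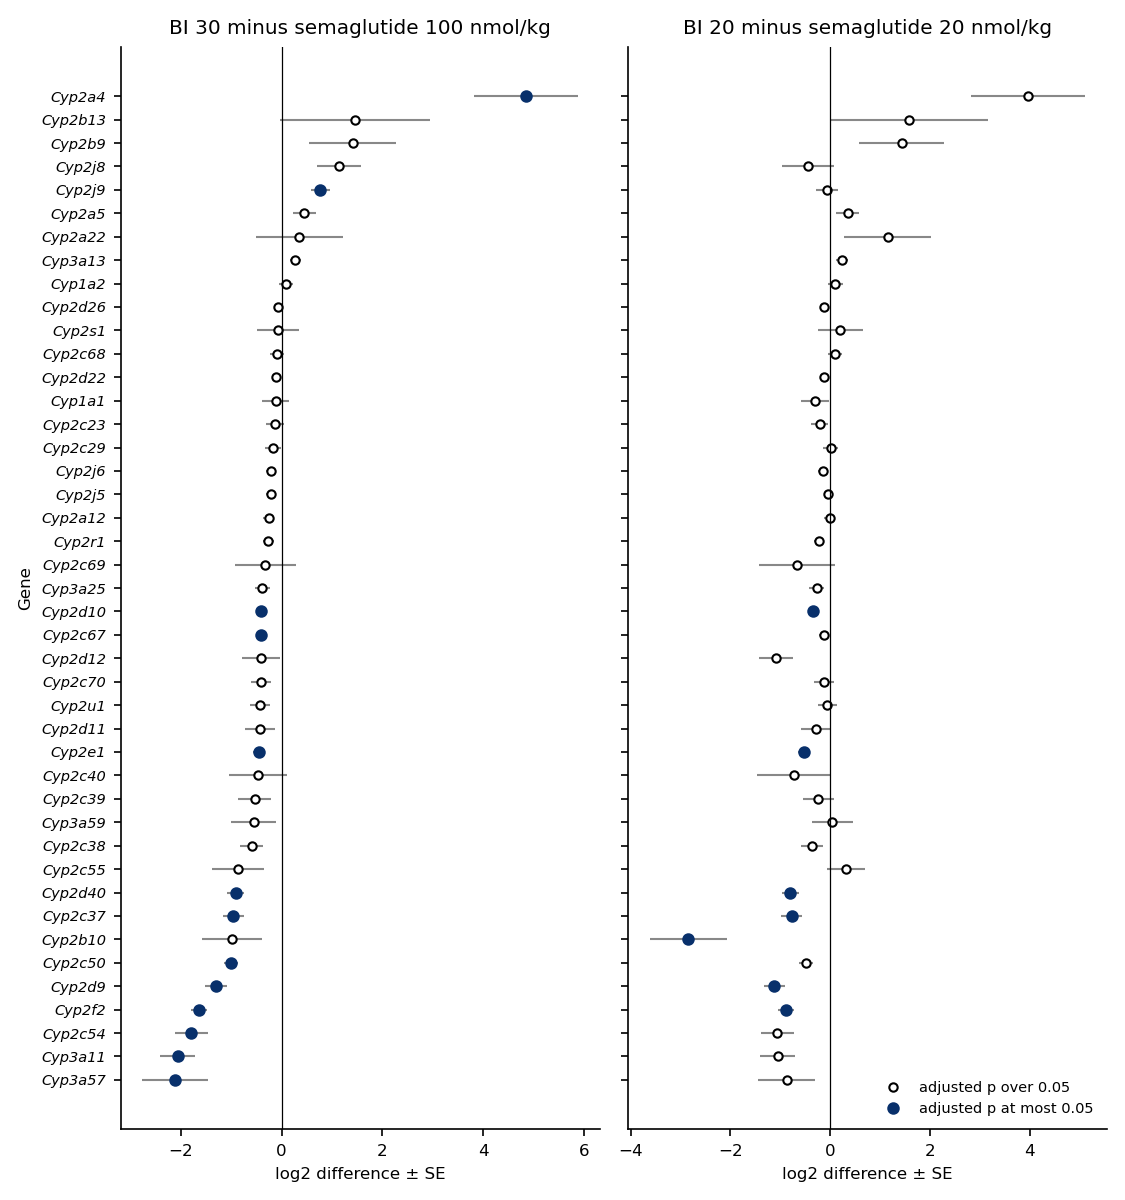
Log2 difference ± SE of each member between BI 456906 and semaglutide, at 20 nmol/kg of both and at 30 against 100 nmol/kg, with filled points where the adjusted p is at most 0.05. Values below 0 are lower with BI 456906, and Cyp2f2, Cyp2d9, Cyp2d10, Cyp2d40, Cyp2e1 and Cyp2c37 are filled and below 0 in both comparisons.

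The regulators and partners of these enzymes were followed through fixed lists of genes outside the set. Over all genes tested, 28.9% were higher and 29.9% lower at 30 nmol/kg BI 456906, and 24% and 24.1% with 100 nmol/kg semaglutide. Of 15 xenobiotic receptors and their partners, 8 were higher and 2 lower at 30 nmol/kg BI 456906, and 7 were higher and 1 lower with 100 nmol/kg semaglutide. Nr1i2, which encodes PXR, was higher (0.66 ± 0.11, adjusted p = 1.67e-06) although its target Cyp3a11 was lower, and Nr1i3, which encodes CAR, did not pass the test (-0.27 ± 0.12, adjusted p = 0.0591). Ahr was higher (0.54 ± 0.12, adjusted p = 0.000176), as was Hnf4a, a master regulator of hepatocyte genes (1.07 ± 0.13, adjusted p = 4.32e-09). Of 14 genes of electron supply and haem metabolism, 3 were higher and 7 lower, and with semaglutide 2 and 9. Por, the reductase that feeds all members with electrons, averaged 381 ± 73.8 TPM in vehicle and 851 ± 85.5 TPM at 30 nmol/kg (log2 fold change 1.10 ± 0.17, adjusted p = 1.27e-06), and Alas1, which starts haem synthesis, was also higher (0.71 ± 0.21, adjusted p = 0.00406), whereas the cytochrome b5 gene Cyb5a was lower (-0.52 ± 0.08, adjusted p = 1.24e-06) along with its reductase Cyb5r3 (-1.12 ± 0.12, adjusted p = 6.27e-10).

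Of 38 conjugating and transport genes of drug disposal, 6 were higher and 21 lower at 30 nmol/kg BI 456906, and 5 and 16 with 100 nmol/kg semaglutide, with Gstm3, a glutathione transferase, at -2.63 and -2.65. Of 10 CAR and PXR targets outside the set, 4 were higher and 4 lower, against 3 and 3 with semaglutide. Of 5 tested AhR targets, 1 was higher and 1 lower, against 2 and 1. Ugt1a6a, also among the 38, was called higher with 100 nmol/kg semaglutide by reads (0.33 ± 0.09, adjusted p = 0.00363). Its mean TPM was lower there, at 80.2 against 89.7 in vehicle. At 30 nmol/kg BI 456906 it was not called (0.13 ± 0.10, adjusted p = 0.263), at 54.8 TPM. Why reads and TPM differed was not tested. Of 28 other P450s tested, 10 were higher and 11 lower, against 10 and 5. The background shares are those given above for the same contrasts.

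Lists of sex-biased, growth hormone, zonal and acute phase genes were counted beside the members, since many members belong to such classes. The background was 28.9% higher and 29.9% lower at 30 nmol/kg BI 456906, and 24% and 24.1% with 100 nmol/kg semaglutide. Of 4 female-biased members tested, 1 (Cyp2a4) was higher and 0 lower at 30 nmol/kg BI 456906, and both male-biased members, Cyp2d9 and Cyp2u1, were lower. The female-biased count depended on the setting. Without replicate 70, Cyp2b13 was called lower as well (-3.04, adjusted p = 0.0293), and under other fits Cyp2c69 was called higher. Outside the set, 3 of 4 female-biased genes were higher, Cux2 the most (4.57 ± 0.96, adjusted p = 9.2e-05), and of 9 male-biased genes 4 were lower and 1 higher, Cyp4a12a falling the most (-4.37 ± 0.69, adjusted p = 1.19e-06) and Serpina1e rising (3.08 ± 0.83, adjusted p = 0.00172). The 3 higher female-biased genes spread widely at 30 nmol/kg, with means ± SD of 8.85 ± 7.77 (Cux2), 0.93 ± 0.86 (A1bg) and 118 ± 41.5 TPM (Acot3). Genes outside the set were not checked without replicate 70. With 100 nmol/kg semaglutide, 1 female-biased member was higher and 1 lower, no male-biased member was called, and outside the set 0 of 4 female-biased genes were called while 3 male-biased genes were higher. Both female-biased calls, of Cyp2c69 and Cyp2b13, were lost in several settings given above, so that the counts of the compounds are not set against each other. Of 10 growth hormone signalling genes, 1 was higher and 3 lower at 30 nmol/kg, Stat5b among the latter (-0.68 ± 0.13, adjusted p = 3.16e-05), and 2 and 1 with semaglutide. The count of these genes lower at 30 nmol/kg was near the background.

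Of 10 periportal genes outside the set, 8 were higher and 2 lower at 30 nmol/kg, and their summed level was 5698 to 7444 TPM in vehicle and 13898 to 14639 TPM at 30 nmol/kg. The periportal member Cyp2f2 was lower, whereas most of the list was higher. For some genes of the list, Sds among them, the paper reports a rise of the transcript with the dose of the dual agonist. The list therefore cannot separate a change of zone from regulation of its genes. A zonal part in the fall of Cyp2f2 was not tested. Of 10 pericentral genes, 2 were higher and 3 lower. With semaglutide the counts were 3 and 1 for the periportal and 3 and 5 for the pericentral list. Of 15 acute phase genes, 6 were higher and 5 lower, against 4 and 3. Over all genes, 28.9% were higher and 29.9% lower at 30 nmol/kg, and 24% and 24.1% with 100 nmol/kg semaglutide. The pericentral and acute phase counts lower at 30 nmol/kg were near that background. Of the markers of other liver cells, cholangiocyte markers were lower in 3 of 5, stellate cell markers in 4 of 5 and Kupffer cell markers in 1 of 6 at 30 nmol/kg, and an endothelial marker was higher in 1 of 4, while 0 of 4 lymphocyte markers were called. Their part in the changes of the members was not tested.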

How the data were processed

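Liver RNA of 42 mice was sequenced by the authors. The methods of the study describe directional poly(A) libraries read in pairs, whereas the labels describe a low-input full-length kit read from 1 end, so that use of strand is not certain. The submitters' processing notes name STAR 2.5.2b, RSEM 1.3.0, featureCounts 1.5.1 and FastQC 0.11.5 with mm10/GRCm38. The deposited read table holds reads per gene divided by 1 factor per library, a signal scaled by the authors. Its values were whole multiples of a step of 0.827 to 1.99 per library (100% within 0.01), and the whole reads were recovered from it. The deposited TPM table was used for levels. The adipose tissue tables were not used here, and there were 0 columns without a sample.

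The deposited values, still divided by the library factors, were fitted with limma 3.58.1 (voom, TMM, filterByExpr of edgeR 4.0.16, R 4.3.3). This was 1 model of the 7 liver groups, with Benjamini-Hochberg adjustment over 15964 genes. The voom weights thus took replicate 77 of 20 nmol/kg semaglutide as 43071504 reads deep, although 21676902 reads were recovered. The recovered whole reads were used for edgeR and DESeq2. edgeR's quasi-likelihood test, DESeq2 1.42.0, other scalings and filters, sample quality weights, and limma on log2(TPM + 1) and log2(TPM + 0.1) were alternatives. Tested on counts simulated from the recovered reads for 30 nmol/kg BI 456906 against vehicle (16025 genes), the fit recovered 66% of 1.5-fold and 76% of 2-fold changes. It recovered 100% of 4-fold and 94% of 8-fold changes and called 10 unchanged genes. Each size of change was given to 50 genes, so that a far smaller part of the genes changed than was called in the data. The simulated counts were not divided by library factors. The shares recovered may therefore differ in the data. Full values were given for 28 members by rule (the most abundant of each subfamily, the 8 largest called rises and falls at 30 nmol/kg BI 456906, the 3 largest of each with 100 nmol/kg semaglutide, and 7 textbook enzymes). Other members were named once their values had been seen. The set and the gene lists were chosen with earlier results of these data known. Sharing of 100-base stretches and transcript identity were computed on GENCODE M21 transcripts, promoter letters on RefSeq windows of 250 bases before each start. Read totals limit the precision through counting error only.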

Additional observations from a re-analysis of the deposited data

Results flagged for a closer look

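In 26 of the 196 sets of 6 livers examined (28 members in 7 groups), the highest or lowest TPM lay far from the other 5, its gap to the nearest value taking more of the whole range than Dixon's 95% limit for 6 values. For independent values with a normal spread, about 1 set in 20 would pass this limit. The sets here share livers and include genes with very few reads, so that the 26 was not set against chance.

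Replicate 70 of the 30 nmol/kg BI 456906 group accounted for 9 of the 26. It was the highest of its group for Cyp2a4 at 345.76 TPM, Cyp2a5 at 484.92 TPM, Cyp2a22 at 26.35 TPM, Cyp2b9 at 422.07 TPM, Cyp2b13 at 22.05 TPM, Cyp2c39 at 3.98 TPM, Cyp2c69 at 9.44 TPM and Cyp3a59 at 10.68 TPM. It was the lowest for Cyp2f2 at 69.45 TPM. These genes lie on chromosomes 5, 7 and 19, and the list holds the 4 female-biased members tested, Cyp2a4, Cyp2b9, Cyp2b13 and Cyp2c69. In the same group, replicate 71 was the highest for Cyp2j8 at 0.59 TPM and Cyp2s1 at 0.56 TPM.

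In vehicle, replicate 48 was the highest for Cyp2a4 at 14.46 TPM and replicate 45 for Cyp3a57 at 0.24 TPM. With 3 nmol/kg BI 456906, replicate 49 was the highest for Cyp2d12 at 0.62 TPM and the lowest for Cyp2u1 at 4.83 TPM. With 10 nmol/kg, replicate 59 was the highest for Cyp2a22 at 21.19 TPM and Cyp2b13 at 5.68 TPM, and replicate 60 for Cyp2d12 at 0.34 TPM and Cyp3a57 at 0.08 TPM. With 20 nmol/kg, replicate 65 was the lowest for Cyp2d26 at 653.32 TPM, replicate 66 the highest for Cyp2j8 at 0.21 TPM and replicate 61 for Cyp3a57 at 0.02 TPM. With 20 nmol/kg semaglutide, replicate 78 was the highest for Cyp2a4 at 25.32 TPM, replicate 76 for Cyp2b10 at 105.87 TPM, replicate 74 for Cyp2r1 at 8.93 TPM and replicate 75 for Cyp3a57 at 0.04 TPM. The values of Cyp2d12, Cyp2j8, Cyp2s1 and Cyp3a57 rest on at most 46 reads.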

How the results depend on the processing

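No call of a named member reversed under any alternative tried. For the 28 members followed in detail at 30 nmol/kg BI 456906, 229 results outside the left-out libraries kept their side of the threshold, 7 lost it and 9 gained it. Among left-out libraries 11 lost it and 8 gained it. With 100 nmol/kg semaglutide 234 kept it, 10 lost it and 1 gained it, and among left-out libraries 17 lost it. Cyp2d26 lost its call there in 4 settings and without vehicle replicate 45, 47 or 48 or semaglutide replicate 79, 81 or 83. Sample quality weights raised the counts of members higher to 11 at 30, 8 at 20, 8 at 10 and 5 at 3 nmol/kg BI 456906, 12 at 20 and 14 at 100 nmol/kg semaglutide, and 4 and 1 in the contrasts between compounds at the highest and the equal dose. The minimum of 1 in log2 fold change left 12 members lower at 30 nmol/kg. At 10 nmol/kg, 5 members were higher with edgeR, DESeq2 and both TPM fits, and at the equal dose 1 was. At 3 nmol/kg, without a filter 1 was higher and 1 lower, and 1 was lower with edgeR and DESeq2. The causes were not tested.

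Leaving out each library in turn gave 22 to 25 members lower and 5 to 10 higher at 30 nmol/kg (10 without BI 456906 30 nmol/kg replicate 71, 5 higher and 25 lower without replicate 70), 20 to 22 and 4 to 6 at 20, 9 to 11 and 3 to 5 at 10 (5 without vehicle replicate 44 or 47), and 0 to 4 and 1 to 3 at 3 nmol/kg. At 3 nmol/kg, 1 was higher without vehicle replicate 45, 46 or 48 or treated replicate 51 or 53, and the count lower was 0 without vehicle replicate 43 or 48 or treated replicate 51, 53 or 54, 1 without vehicle replicate 45 or 46, and 4 without treated replicate 50. With semaglutide, 9 to 11 were lower and 3 to 6 higher at 20 nmol/kg and 9 to 12 and 5 to 9 at 100 nmol/kg, with 3 and 5 higher without vehicle replicate 46. The contrasts between compounds gave 10 to 14 lower and 2 to 3 higher at the highest doses, and 5 to 8 lower and 0 to 1 higher at the equal dose (1 without replicate 49, 58, 59, 65, 70, 82 or 83). Slopes fell in 24 to 25 and rose in 6 to 8 members, and without the vehicle group in 20 and 5. Requiring 10 reads in all 42 libraries leaves 33 members, and 1 read in any gives 56. Cyp2c69 at 30 nmol/kg was called with edgeR, DESeq2, TPM and quality weights but not with voom. No paired analysis was possible because each library has a number of its own, which no sample of another group shares.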
